A study of Mus musculus with 2 samples.

Results

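The genes described here are 30 transcripts that cells commonly raise when oxygen is short, or that encode the enzymes of glycolysis. They were chosen by symbol, as a list, and all 30 were found among the 31053 features of the matrices. Single-cell RNA sequencing had been done on MC38 tumours, formed by a murine carcinoma line of the colon after injection into the flank of C57BL/6 mice. The SHP099 group carried such tumours and was given SHP099, an inhibitor of the phosphatase SHP2, by mouth daily at 5 mg/kg for 14 days. The control group carried the same tumours and was given PBS over those days, although another label calls it untreated. Dosing began 5 days after injection, at an average tumour size of 100 mm3, with 6 mice in each group. Only 1 library was made per group, from a number of tumours that the sources used here do not state. There was therefore no replicate, and no test of SHP099 against control was possible.

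When oxygen falls, the prolyl hydroxylases that mark the HIF alpha proteins for breakdown slow, and HIF with its partner ARNT binds short RCGTG-type elements beside its target genes. The targets bring glucose into the cell, run glycolysis to lactate, keep pyruvate away from mitochondria, clear mitochondria and send out signals for new vessels. Solid tumours often hold poorly supplied zones, and macrophages in such zones are known to express many of the same genes. Glycolytic genes are also raised by growth signals and by activation of immune cells, so the list is no direct measure of oxygen.

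Levels are unique molecular identifiers (UMIs, which count captured RNA molecules) of a gene summed over the cells of a class, divided by all UMIs of that class and scaled as CPM, the usual counts-per-million unit. These are counts of transcript ends and were not divided by gene length, so levels are compared between cells for the same gene and not between genes. Intervals are 95% intervals and cover counting error only. The SHP099 library held 112901642 UMIs in 8263 barcodes and the control library 126218180 in 8245, of which 7702 SHP099 cells and 7687 control cells were kept. Both libraries shared 100 barcodes. The largest class was marked by the near absence of Xist, at 3.02 CPM in SHP099 and 2.76 CPM in control, against 1157 CPM in phagocytes of SHP099 and 1004 CPM in those of control. These Xist-negative cells, 4297 in SHP099 and 4188 in control, expressed the oncofetal genes Hmga2 and Igf2bp2, but the epithelial markers Epcam and Krt8 lay at or near 0, and the matrix gene Dcn reached 1505 CPM in SHP099 and 1132 CPM in control. Of the other fibroblast markers Col3a1 was high too, at 2017 CPM in SHP099 and 1540 CPM in control. Col1a1, Col1a2, Lum, Pdgfra and Pdgfrb lay far below their level in the fibroblast class. Col1a1 was at 30.3 CPM in SHP099 and 12.9 CPM in control, against 11485 and 9701 CPM in fibroblasts. With markers that differ in this way, the Xist-negative cells are called by their rule and not as carcinoma cells. Mononuclear phagocytes numbered 2763 in SHP099 and 2663 in control and T cells 398 in SHP099 and 519 in control. NK cells, dendritic cells, fibroblasts and endothelial cells were fewer than 100 in each library. Median depth in SHP099 was 20152 UMIs in Xist-negative cells, 4207 in phagocytes and 2036 in T cells, and in control 24303, 4336 and 2400.

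Promoters of the 6 members that differed by 1.5-fold in phagocytes or Xist-negative cells and held at least 1 HIF-type motif are shown here. Each line gives the 250 bases before the RefSeq start of the gene on build GRCm38.p6, 5′ to 3′ on the strand of the gene, with the letters ACGTG or GCGTG, or their reverse complements, in capitals. Slc2a1 lies at chr4:119108495-119108744 on the plus strand, Bnip3 at chr7:138909507-138909756 on the minus strand and Ankrd37 at chr8:45999851-46000100 on the minus strand. Egln3 lies at chr12:54203875-54204124 on the minus strand, Kdm3a at chr6:71632918-71633167 on the minus strand, P4ha2 at chr11:54100674-54100923 on the plus strand and Ldha at chr7:46845554-46845803 on the plus strand. Ldha is added as the member with the most ACGTG matches. The windows of Ankrd37, P4ha2 and Ldha lie inside the longer gene spans that GENCODE gives, and those of Slc2a1, Bnip3 and Kdm3a reach past the GENCODE start.
Slc2a1: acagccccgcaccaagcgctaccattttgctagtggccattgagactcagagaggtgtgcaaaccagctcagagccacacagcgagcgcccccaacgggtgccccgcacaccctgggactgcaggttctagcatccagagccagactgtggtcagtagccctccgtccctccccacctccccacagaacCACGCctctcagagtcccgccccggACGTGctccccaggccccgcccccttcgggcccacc
Bnip3: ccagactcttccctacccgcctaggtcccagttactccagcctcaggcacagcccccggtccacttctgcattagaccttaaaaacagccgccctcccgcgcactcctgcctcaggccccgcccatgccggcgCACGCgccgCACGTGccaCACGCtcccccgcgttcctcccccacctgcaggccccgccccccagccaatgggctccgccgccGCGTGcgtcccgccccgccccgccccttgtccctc
Ankrd37: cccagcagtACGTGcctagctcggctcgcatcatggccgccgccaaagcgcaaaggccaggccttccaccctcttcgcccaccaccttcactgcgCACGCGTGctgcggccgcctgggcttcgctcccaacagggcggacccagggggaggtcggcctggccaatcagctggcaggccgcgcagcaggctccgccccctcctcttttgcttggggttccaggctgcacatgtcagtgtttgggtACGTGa
Egln3: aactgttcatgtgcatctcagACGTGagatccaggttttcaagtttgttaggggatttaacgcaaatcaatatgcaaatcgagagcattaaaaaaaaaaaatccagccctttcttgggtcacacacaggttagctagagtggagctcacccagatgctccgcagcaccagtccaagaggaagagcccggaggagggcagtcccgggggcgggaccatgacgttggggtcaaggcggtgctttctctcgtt
Kdm3a: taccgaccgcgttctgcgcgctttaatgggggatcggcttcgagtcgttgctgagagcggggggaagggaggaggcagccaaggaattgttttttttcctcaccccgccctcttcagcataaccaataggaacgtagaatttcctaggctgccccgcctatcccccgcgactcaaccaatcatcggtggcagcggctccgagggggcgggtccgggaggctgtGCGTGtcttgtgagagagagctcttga
P4ha2: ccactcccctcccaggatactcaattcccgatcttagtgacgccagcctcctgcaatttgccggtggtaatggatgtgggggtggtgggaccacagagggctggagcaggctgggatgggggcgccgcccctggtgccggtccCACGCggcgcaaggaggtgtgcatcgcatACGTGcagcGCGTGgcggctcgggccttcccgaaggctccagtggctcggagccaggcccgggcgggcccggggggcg
Ldha: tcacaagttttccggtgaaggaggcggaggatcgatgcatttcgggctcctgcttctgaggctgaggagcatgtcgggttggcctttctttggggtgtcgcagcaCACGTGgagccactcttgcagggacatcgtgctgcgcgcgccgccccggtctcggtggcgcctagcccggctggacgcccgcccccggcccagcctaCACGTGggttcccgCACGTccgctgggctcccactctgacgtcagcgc

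Of the 27 members with a RefSeq window, 20 held at least 1 match, or 74.1%, against 38.6% of all 27025 windows of the same length. ACGTG alone was present in 13 members, or 48.1%, against 16.6% of all windows. Windows with 3 or more matches made up 25.9% of the members' and 6.69% of all. Matches on both strands were counted, so a CACGTG counts as 2, as it does in Bnip3 at 108 and 107 bases before the start and in Ldha at 145 and 144 and at 48 and 47. Bnip3 held 5 matches in all and Ldha held 5, all of them ACGTG. Ankrd37 held 4, P4ha2 held 3 and Slc2a1 held 2. Egln3 and Kdm3a held 1 each, which begin 229 and 27 bases before the start. No match was found in this window for Vegfa, Hilpda, Mif, Aldoa, Gpi1, Pkm or Tpi1. A match describes the letters and is not evidence of binding.

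Most members were detected in every large class, and the list as a whole marked none of them. The highest of the 7 classes was the same in both libraries for 16 of the 30 members. Xist-negative cells were set against phagocytes within each library, over members at 10 CPM in at least 1 of these classes. In the SHP099 library 8 of 29 members were at least 1.5-fold higher in Xist-negative cells, as were 35.5% of all genes, and 4 were lower, as were 26.0%. In the control library 4 of 28 were higher, against 37.9% of all genes, and 7 lower, against 26.9%. Ak4, Fam162a, Ndrg1 and P4ha2 were higher in both libraries, and Vegfa, Hilpda, Slc2a1 and Hk2 lower in both.

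**Figure D1:**
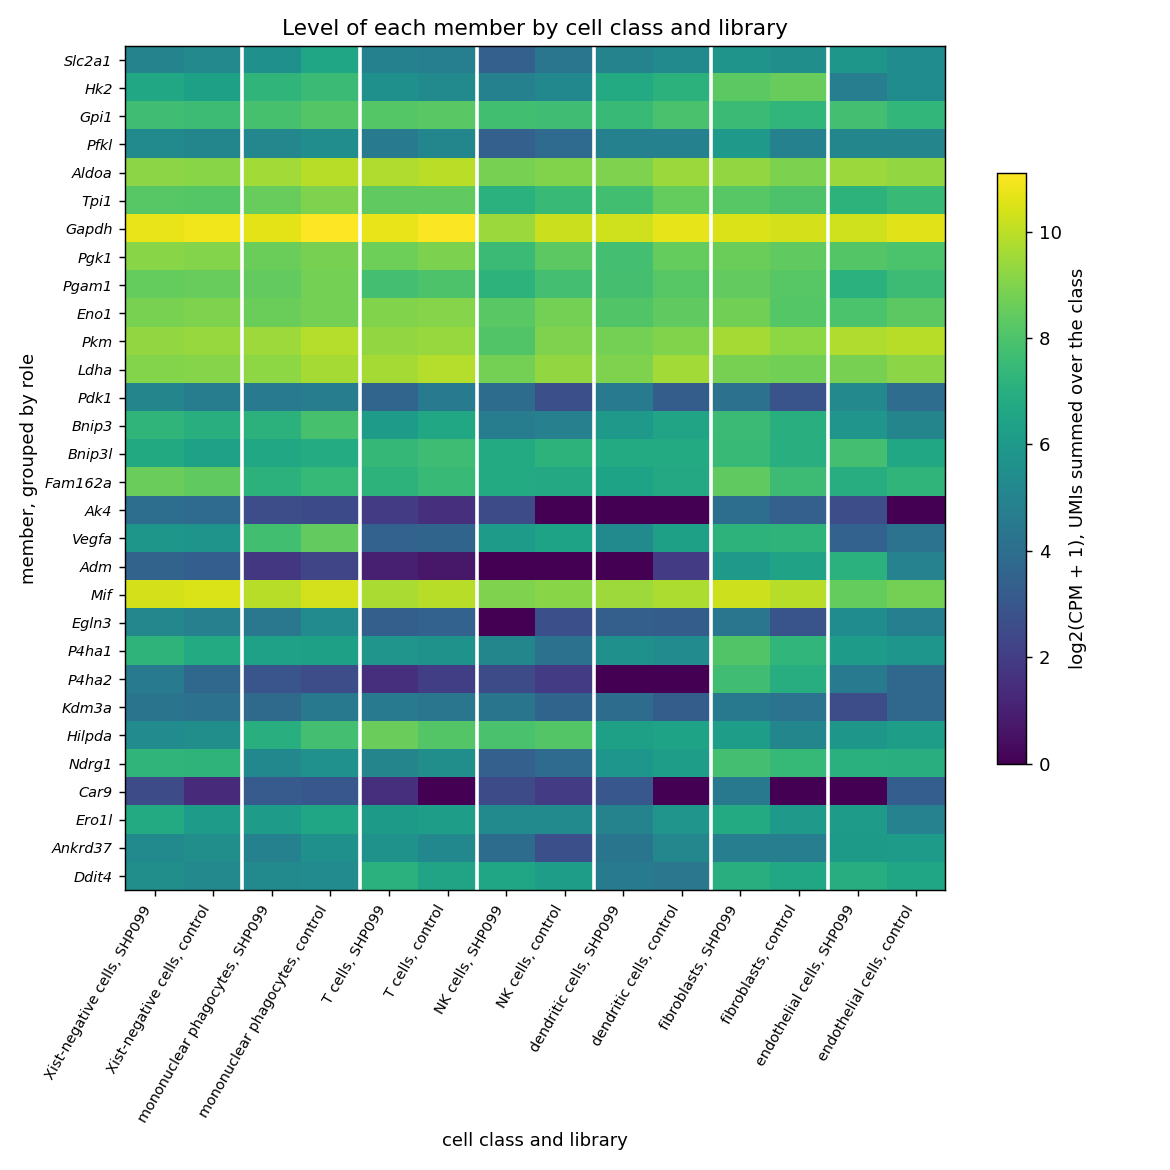
Level of each of the 30 members, as log2(CPM + 1) in colour, in 7 cell classes with the SHP099 library left of the control library. Vegfa is brightest in phagocytes, Hilpda in T cells, P4ha2 and Hk2 in fibroblasts. The glycolytic enzymes other than Pfkl are bright in every class.

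The secreted members had their highest level per UMI in different classes. Vegfa, the main growth factor for vessels, was highest in phagocytes, at 216 CPM (209 to 225) in SHP099 and 345 CPM (335 to 356) in control. Xist-negative cells held 58.6 CPM in SHP099 and 53.1 CPM in control, and T cells held 11 UMIs in SHP099 and 17 in control. All UMIs of Xist-negative cells numbered 92317621 in SHP099 and 104164361 in control, and those of phagocytes 13013230 and 12263191. In all, Xist-negative cells therefore held more Vegfa UMIs than phagocytes in both libraries. The Vegfa receptors Kdr and Flt1 were at 283 and 725 CPM in endothelial cells of SHP099 and at 304 and 673 CPM in those of control. Adm, the peptide adrenomedullin that acts on vessels, was highest in endothelial cells of SHP099, at 138 CPM (103 to 180), against 29.8 CPM (14.3 to 54.8) in control, and in fibroblasts of control, at 84.7 CPM, against 64.3 CPM in SHP099. The endothelial values rest on 53 UMIs of Adm in 46 SHP099 cells and 10 in 29 control cells. In that class the summed pericyte markers were at 556 CPM in SHP099 and 170 CPM in control, the fibroblast markers at 865 CPM in SHP099 and 646 CPM in control, and the part of such cells in the Adm values was not tested. In Xist-negative cells Adm was near the floor, at 10.6 CPM in SHP099 and 9.12 CPM in control. The parts of its receptor, Calcrl and Ramp2, were at 98.8 and 567 CPM in endothelial cells of SHP099 and at 74.4 and 593 CPM in those of control. Mif, a cytokine bound by CD74, was high in all classes, at 1336 CPM in SHP099 and 1434 CPM in control in Xist-negative cells, and at 959 CPM in SHP099 and 1309 CPM in control in phagocytes. Cd74 itself was at 11536 CPM in phagocytes of SHP099 and 12769 CPM in those of control.

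Hilpda, a lipid droplet protein that slows fat breakdown, and P4ha2, a collagen prolyl hydroxylase, also differed between classes. Hilpda was highest in T cells, at 381 CPM (345 to 420) in SHP099 and 285 CPM (259 to 313) in control, and lowest among the large classes in Xist-negative cells, at 40.5 CPM in SHP099 and 44.2 CPM in control. Within T cells it was higher in the regulatory T cluster than in the CD8 cluster in both libraries, at 485 against 349 CPM in SHP099 and 481 against 253 CPM in control. P4ha2 was highest in fibroblasts, at 210 CPM (171 to 256) in SHP099 and 120 CPM (94.3 to 150) in control, on 50 SHP099 cells and 80 control cells. Hk2, the hexokinase bound to mitochondria, was also highest there, at 317 CPM in SHP099 and 363 CPM in control. Ndrg1, a stress protein, was at 151 CPM in SHP099 and 150 CPM in control in Xist-negative cells, and at 35.7 CPM in SHP099 and 48.6 CPM in control in phagocytes. Car9, the cell-surface carbonic anhydrase often used as a mark of tumour hypoxia, stayed under 10 CPM in Xist-negative cells, phagocytes and T cells of both libraries.

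In phagocytes the list was lower in SHP099 than in control. Members were taken as measured at a level of 10 CPM in at least 1 of the libraries. Of the 26 measured, 25 had a log2 ratio of SHP099 over control below 0, and the interval lay below 0 for 23. The share of all genes below 0, or with such an interval, was not counted, here or in the phagocyte subsets below. The median was −0.40, against 0.05 over the 6863 genes measured in this class. Of the 26 members, 7 were at least 1.5-fold lower, a fold that 1.68% of all genes passed. This count was 4 with called doublets kept, and 0 with the 4 phagocyte clusters weighted alike, where the median was −0.01 over the same 26 members and 0.04 over the 29 then measured. None of the 26 was at least 1.5-fold higher, a fold that 4.04% of all genes passed. Adm, Car9, P4ha2 and Ak4 were under the floor. The summed level of all 30 was 7689 CPM in SHP099 and 10169 CPM in control. In whole tissue fewer cells and less RNA per cell cannot be told apart; here the values are per UMI of the class, so they do not depend on its number of cells.

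Slc2a1, the glucose transporter GLUT1, differed most, with 47.4 CPM (43.7 to 51.3) in SHP099 and 94.2 CPM (88.8 to 99.8) in control, a log2 ratio of −0.98 (−1.13 to −0.85). Egln3, the oxygen-sensing prolyl hydroxylase PHD3, held 21.0 CPM in SHP099 and 39.5 CPM in control (log2 −0.90). Hilpda held 127 CPM in SHP099 and 222 CPM in control (−0.81). Bnip3, a receptor for the removal of mitochondria, held 139 CPM in SHP099 and 234 CPM in control (−0.75). Ankrd37, a HIF target with ankyrin repeats, held 28.7 CPM in SHP099 and 47.1 CPM in control (−0.71). For Vegfa the log2 ratio was −0.67 (−0.74 to −0.60). Kdm3a, a histone demethylase that needs oxygen, held 13.4 CPM in SHP099 and 21.3 CPM in control (−0.64). These 7 are the members that passed 1.5-fold. The 2 libraries' intervals, which cover counting error only, did not overlap for any of them. The 7 were picked by fold from the same UMI sums, so this adds no support. The share of all genes without such overlap was not counted.

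The 10 glycolytic enzymes differed less and all in the same direction. Their log2 ratios ran from −0.44 for Gapdh to −0.16 for Eno1, with a median of −0.34, and none reached 1.5-fold. Gapdh held 1636 CPM in SHP099 and 2212 CPM in control, and Ldha, which turns pyruvate into lactate, 605 CPM in SHP099 and 789 CPM in control. Gapdh, Eno1, Ldha, Pgam1 and others have many processed copies in the mouse genome, and how reads shared with such copies were counted is not stated. Pdk1, the kinase that keeps pyruvate out of mitochondria, was at 23.7 CPM in SHP099 and 25.4 CPM in control (log2 −0.09, −0.33 to 0.14). P4ha1, a collagen prolyl hydroxylase, was at 80.8 CPM in SHP099 and 79.7 CPM in control (0.02), and Ddit4, an inhibitor of mTORC1, had a log2 ratio of −0.06. For these 3 the interval held 0.

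**Figure D2:**
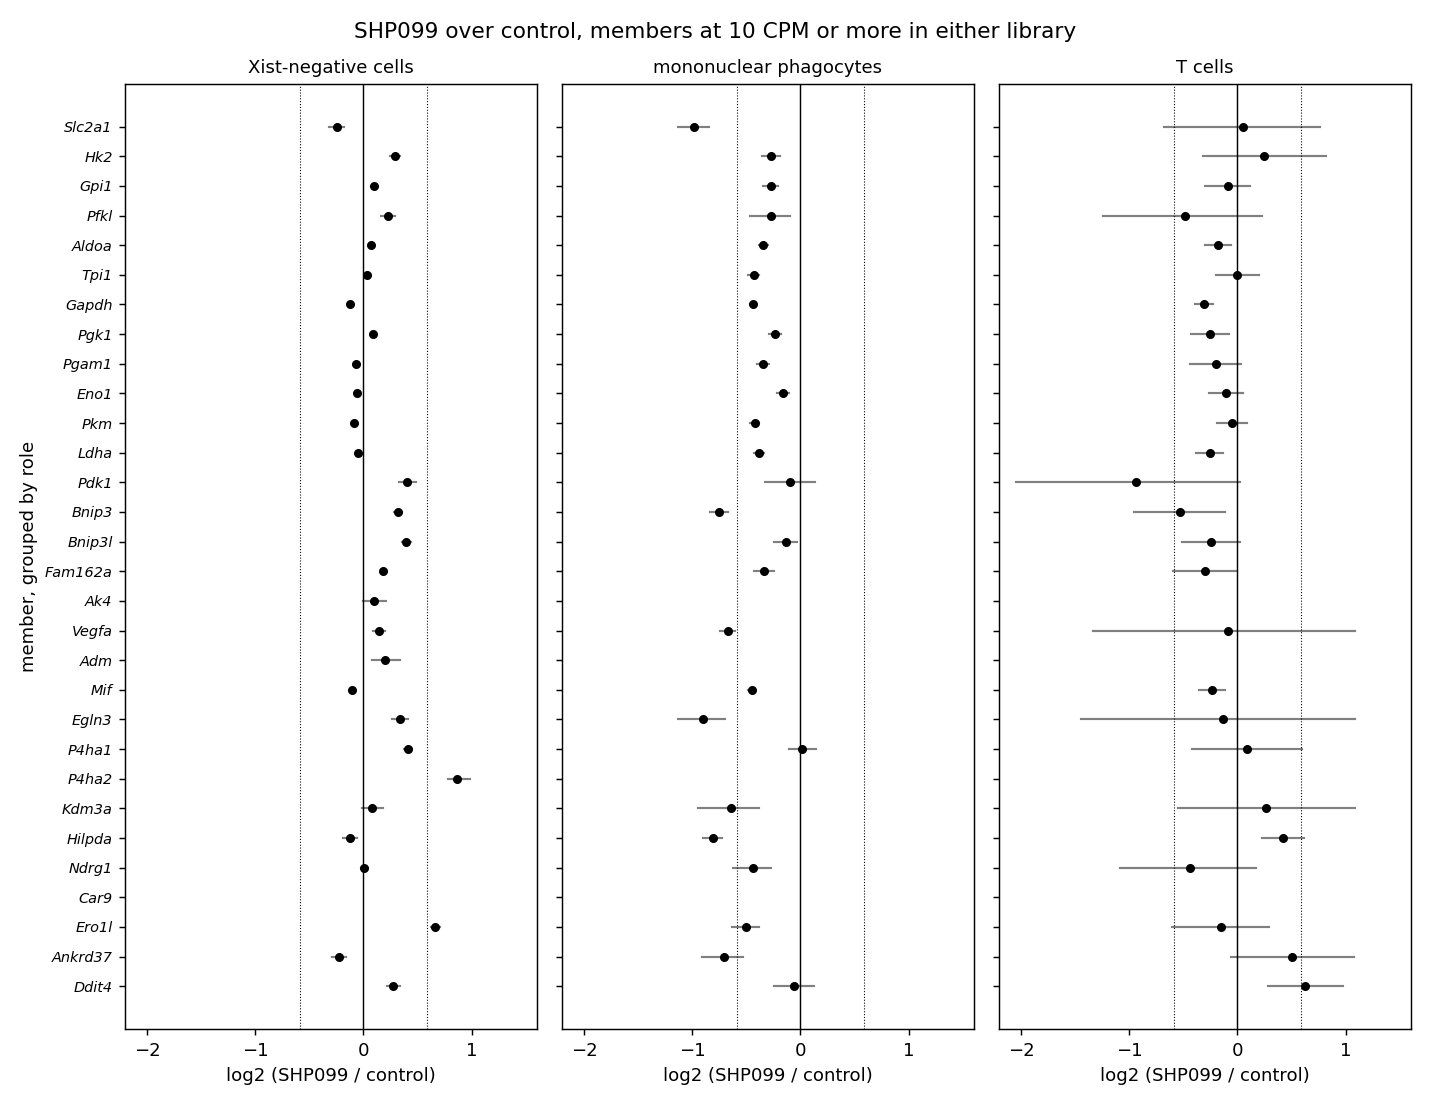
Log2 ratio of SHP099 over control for the members measured in Xist-negative cells, phagocytes and T cells, with exact conditional 95% intervals of counting error as lines and 1.5-fold as dotted lines. In phagocytes all but P4ha1 lie left of 0, in Xist-negative cells P4ha2 and Ero1l lie past 1.5-fold on the right, and the T cell intervals are wide.

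The share of phagocytes with a UMI of these genes differed in the same direction once each cell was drawn down to 2000 UMIs. An Slc2a1 UMI was found in 8.91% of 2447 SHP099 phagocytes and 16.5% of 2356 control phagocytes, and at full depth in 17.0% in SHP099 and 30.1% in control. A Vegfa UMI was found in 31.2% (29.4 to 33.1) in SHP099 and 44.7% (42.7 to 46.8) in control, and at full depth in 46.3% in SHP099 and 63.5% in control. T cells, which hold little Vegfa, gave 0.990% of 202 cells in SHP099 and 3.03% of 330 in control, so the phagocyte shares lie above those of T cells. Drawing down left out 316 phagocytes and 196 T cells of SHP099 and 307 phagocytes and 189 T cells of control.

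The mix of phagocytes differed between the libraries, and the members' levels differed between the parts of that mix. Clusters were made without the members. Cluster 5, led by the complement genes C1qa and C1qb with Ms4a7, held 1386 SHP099 cells and 505 control cells. Cluster 7, led by Arg1 with Spp1, held 467 SHP099 cells and 1139 control cells, and cluster 8, led by Il1b with Ly6c2 and MHC class II genes, 761 SHP099 cells and 878 control cells. Cluster 6, with 149 SHP099 cells and 141 control cells, was shallow and carried haemoglobin RNA. It held Hmga2, Igf2bp2 and Igf2bp3 at a summed 45.8% of the level of Xist-negative cells in SHP099 and 57.4% in control. Over all phagocytes these shares were 9.33% in SHP099 and 7.89% in control. Igf2bp3 does not mark Xist-negative cells. In control it was at 13.2 CPM there, against 20.7 CPM in T cells and 30.4 CPM in NK cells. In SHP099 it was higher in NK cells only, and the NK values rest on 5 UMIs in SHP099 and 11 in control. Igf2bp3 held 4.07 of the summed 13.5 CPM in phagocytes of SHP099 and 2.28 of 13.5 CPM in control. In cluster 6 it held 4.52 of 66.4 CPM in SHP099 and 6.25 of 98.5 CPM in control. Haemoglobin RNA over all phagocytes was 156 CPM in SHP099 and 1.96 CPM in control, and mitochondrial RNA 3.17% in SHP099 and 2.25% in control. With mitochondrial, ribosomal protein and haemoglobin genes left out of the scale the members' median was −0.36 with 7 lower, and with cells limited to 10% mitochondrial UMIs −0.39 with 7 lower. Without cluster 6 it was −0.43 with 9 lower. Members were highest in cluster 7 for 20 of 30 in SHP099 and 18 of 30 in control, and lowest in cluster 5 for 27 in SHP099 and 16 in control. Summed, they reached 12211 CPM in SHP099 and 11810 CPM in control in cluster 7, and 5253 CPM in SHP099 and 6568 CPM in control in cluster 5.

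Within the 3 deeper clusters the difference of the list was smaller. The members' median log2 ratio was −0.32 in cluster 5, 0.04 in cluster 7, −0.26 in cluster 8 and 0.43 in cluster 6, while the median over all genes in those clusters was 0.04, 0.02, 0.03 and 0.02. In cluster 5, 2 of 25 measured members were at least 1.5-fold lower (background 2.19%), in cluster 7, 2 of 28 (3.12%), and in cluster 8, 2 of 26 (3.95%). At least 1.5-fold higher were 3 of 28 in cluster 7 (4.2%) and 13 of 29 in the shallow cluster 6 (16.0%). With the clusters set to their pooled shares of cells the median over phagocytes was −0.10 and no member was 1.5-fold lower. The pooled shares were chosen after seeing the data. Slc2a1 kept its direction in each of the 3 deeper clusters, with every interval below 0. It was at 27.1 CPM in SHP099 and 47.5 CPM in control in cluster 5 (log2 −0.80). In cluster 7 it was at 73.5 CPM in SHP099 and 122 CPM in control (−0.72), and in cluster 8 at 71.6 CPM in SHP099 and 90.8 CPM in control (−0.34). Vegfa did so too, with log2 ratios of −0.59, −0.31 and −0.27 in those clusters. Bnip3 was lower in clusters 5 and 8, at −0.52 and −0.65, and stood at −0.09 (−0.21 to 0.03) in cluster 7. Hilpda and Egln3 were at −0.11 and −0.16 in cluster 7, with intervals that held 0.

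**Figure D3:**
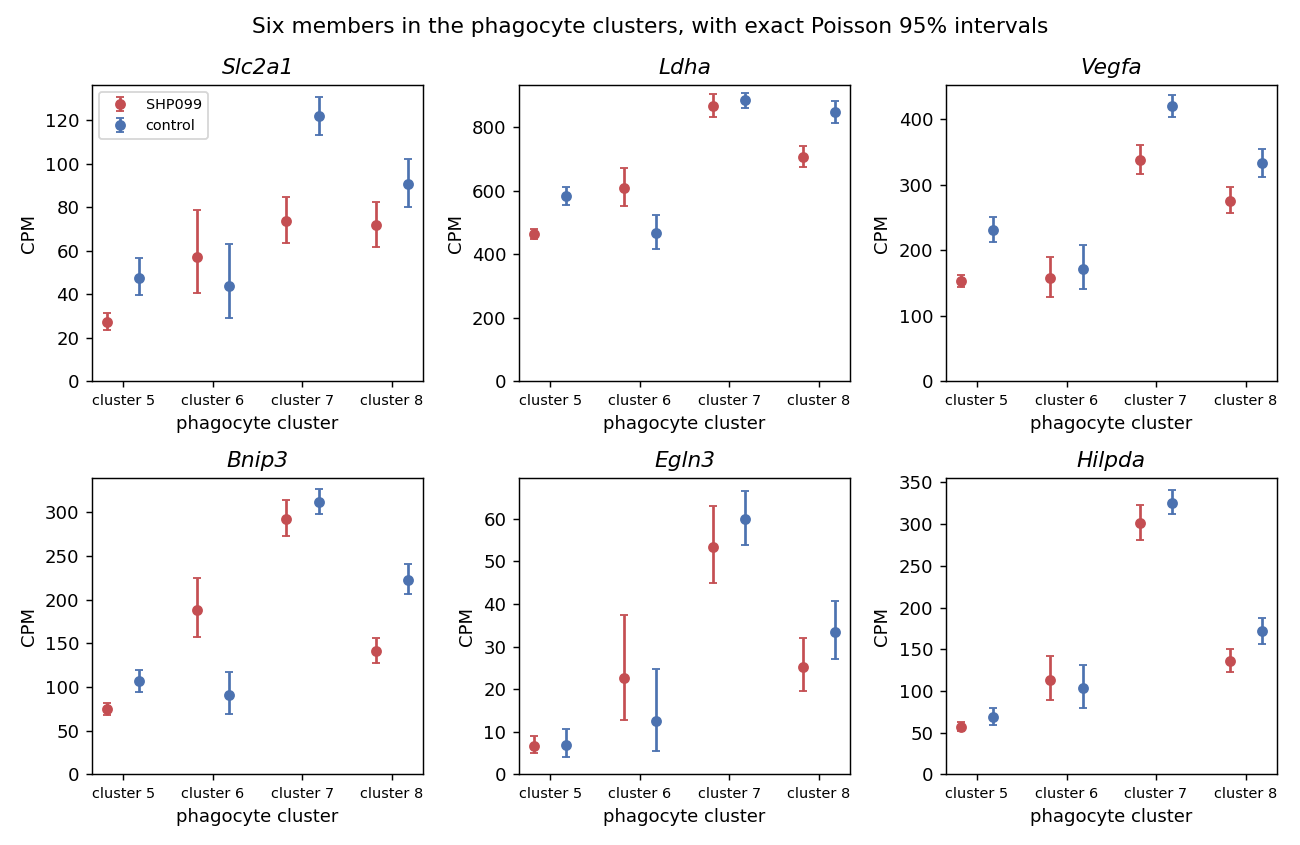
Level in CPM of 6 members in the 4 phagocyte clusters, SHP099 left of control, with exact Poisson 95% intervals. Slc2a1 and Vegfa are lower in SHP099 in clusters 5, 7 and 8, whereas Bnip3, Egln3 and Hilpda of cluster 7 lie close together in both libraries.

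Phagocytes were also divided by a few genes in place of clusters, a split chosen with the cluster results known. The split used counts drawn down to 2000 UMIs a cell, and the levels used all counts. Cells with an Arg1 or Mmp12 UMI and no monocyte UMI made up 18.6% of 2447 SHP099 phagocytes and 30.5% of 2356 control phagocytes. C1q cells, with at least 3 C1q UMIs and no Arg1, Mmp12 or monocyte UMI, made up 41.6% in SHP099 and 32.0% in control. A cell without such a UMI may still hold RNA that was not sampled. The part of such cells in the values of the C1q cells was not tested. In the C1q cells all 26 measured members were below 0, with a median log2 ratio of −0.47, and 8 were at least 1.5-fold lower (background 3.42%), of which Egln3 reached 10 CPM in control alone. There Slc2a1 was at 26.7 CPM in SHP099 and 68.1 CPM in control, and Vegfa at 157 CPM in SHP099 and 301 CPM in control. In the Arg1 or Mmp12 cells the median was −0.16, and 3 of 27 were at least 1.5-fold lower (background 2.66%): Slc2a1, Egln3 and Kdm3a. Cells with both monocyte and C1q transcripts had a median of −0.45 with 7 of 26 lower (4.18%). Those with repeated monocyte UMIs and no C1q UMI had a median of −0.27 with 3 of 26 lower (13.2%). Neither of these groups was limited by Arg1 or Mmp12. With the subsets weighted alike the median was −0.31. Slc2a1 was at least 1.5-fold lower in all 4 subsets.

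Other genes of the pathway in phagocytes were lower in part. Of all genes measured in this class 1.68% were at least 1.5-fold lower and 4.04% at least 1.5-fold higher. The ratios given here are over the whole class, whose mix of clusters differed between the libraries. Hif1a, which encodes the oxygen-regulated subunit of HIF, was at 143 CPM in SHP099 and 195 CPM in control (log2 −0.45), and Egln1, its main prolyl hydroxylase, at 24.4 CPM in SHP099 and 33.7 CPM in control (−0.45). Of 9 HIF factors and regulators 6 were measured, and none differed by 1.5-fold. Of 20 other genes of glucose and lactate handling 12 were measured with a median of −0.35, and 4 were at least 1.5-fold lower. These were Hk3 (−0.63), Aldoc (−0.62), Pgm2 (−0.61) and Gys1 (−0.63), a hexokinase, an aldolase, a phosphoglucomutase and a glycogen synthase, and Gys1 reached the floor in control alone. The lactate exporter Slc16a3 was at 88.8 CPM in SHP099 and 126 CPM in control (−0.50). Of 20 other hypoxia-induced genes 14 were measured with a median of −0.13. Hmox1, haem oxygenase, at 123 CPM in SHP099 and 215 CPM in control (−0.80), and Mxi1, a MAX-binding repressor (−0.59), were at least 1.5-fold lower. Plod2, a collagen lysyl hydroxylase, was higher, at 14.6 CPM in SHP099 and 8.15 CPM in control (0.80), and so reached the floor in SHP099 alone. Among 10 receptor genes of the secreted members 5 were measured, and Ramp1, a partner of the receptor Calcrl, was higher, at 25.4 CPM in SHP099 and 12.3 CPM in control (1.01).

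In Xist-negative cells the list did not move in 1 direction. Of 29 measured members 20 had a log2 ratio above 0 and 9 below, with a median of 0.10 against 0.02 over 7034 genes. None was at least 1.5-fold lower, a fold that 0.227% of all genes passed, and 2 were at least 1.5-fold higher, as were 1.12% of all genes. These were P4ha2, at 22.6 CPM (21.6 to 23.6) in SHP099 and 12.2 CPM (11.5 to 12.9) in control, and Ero1l, the oxidase that makes disulphide bonds in the endoplasmic reticulum, at 112 CPM (109 to 114) in SHP099 and 70.3 CPM (68.7 to 71.9) in control. Their log2 ratios were 0.86 and 0.66. The summed level of all 30 was 8220 CPM in SHP099 and 8250 CPM in control. The 10 glycolytic enzymes had a median of −0.01 and ran from −0.12 for Gapdh to 0.23 for Pfkl, and the other 19 had a median of 0.20.

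Among those 19, members other than P4ha2 and Ero1l differed by less than 1.5-fold. Pdk1 was at 32.4 CPM in SHP099 and 24.5 CPM in control (log2 0.40), Bnip3l, a relative of Bnip3, at 107 CPM in SHP099 and 81.7 CPM in control (0.39), and Bnip3 at 154 CPM in SHP099 and 123 CPM in control (0.32). P4ha1 was at 148 CPM in SHP099 and 111 CPM in control (0.41), and Egln3 at 34.5 CPM in SHP099 and 27.2 CPM in control (0.34). Slc2a1 was lower here too, at 30.8 CPM in SHP099 and 36.7 CPM in control (−0.25, −0.32 to −0.18), as were Ankrd37 at 37.6 CPM in SHP099 and 44.0 CPM in control (−0.22) and Hilpda (−0.12). Car9 was under the floor, with 448 UMIs or 4.85 CPM (4.41 to 5.32) in SHP099 and 161 UMIs or 1.55 CPM (1.32 to 1.80) in control. Of the pathway's other genes reported here, Angptl4, an inhibitor of lipoprotein lipase, was at 29.7 CPM in SHP099 and 18.1 CPM in control (0.70). None of 5 measured HIF factors or 10 measured genes of glucose and lactate handling passed 1.5-fold. Hif1a was at 41.7 CPM in SHP099 and 38.1 CPM in control (0.13).

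The Xist-negative clusters differed in level and in direction. Cluster 3, led by H19, Hmga2 and Aqp1, held the highest level of 18 of 30 members in SHP099 and of 14 in control. There 5 of 29 measured members were at least 1.5-fold higher in SHP099 (background 1.06%), with Ero1l at 201 CPM in SHP099 and 84.5 CPM in control (log2 1.24), P4ha2 at 39.8 CPM in SHP099 and 16.8 CPM in control (1.22) and Bnip3 at 256 CPM in SHP099 and 169 CPM in control (0.60), besides Adm and P4ha1. Cluster 2, led by Ogn and Igfbp6, had 4 of 29 (background 0.632%), with Ero1l at 187 CPM in SHP099 and 86.2 CPM in control (1.11), P4ha2, Adm and Pdk1. P4ha2 was higher in all 7 of the larger clusters, from 0.22 in cluster 11, where the interval held 0, to 1.22 in cluster 3, and Ero1l likewise, from 0.26 in cluster 12 to 1.24.

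Slc2a1 and Ankrd37 were lower in SHP099 in part of the clusters. Slc2a1 was at 19.3 CPM in SHP099 and 30.7 CPM in control in cluster 4 (log2 −0.65), and had log2 ratios of −0.66 in cluster 11 and −0.57 in cluster 12, whereas in cluster 3 it was at 49.0 CPM in SHP099 and 44.5 CPM in control (0.14, −0.05 to 0.32). Ankrd37 was at 25.2 CPM in SHP099 and 46.7 CPM in control in cluster 4 (−0.88) and at 16.1 CPM in SHP099 and 32.7 CPM in control in cluster 12. In cluster 3 it was at 64.0 CPM in SHP099 and 56.3 CPM in control (0.18), and in cluster 11 its interval held 0. At least 1.5-fold lower were 2 of 28 measured members in cluster 4 (background 1.44%) and 1 of 28 each in cluster 11 (1.37%) and cluster 12 (0.878%). Cluster 4, led by Aspn, Ogn and Postn, held 911 SHP099 cells and 397 control cells. Clusters 11 and 12, led by H19 with Ptn and by replication-dependent histones, held 552 and 416 SHP099 cells and 364 and 470 control cells. With the clusters weighted alike the members' median over Xist-negative cells was 0.05.

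**Figure D4:**
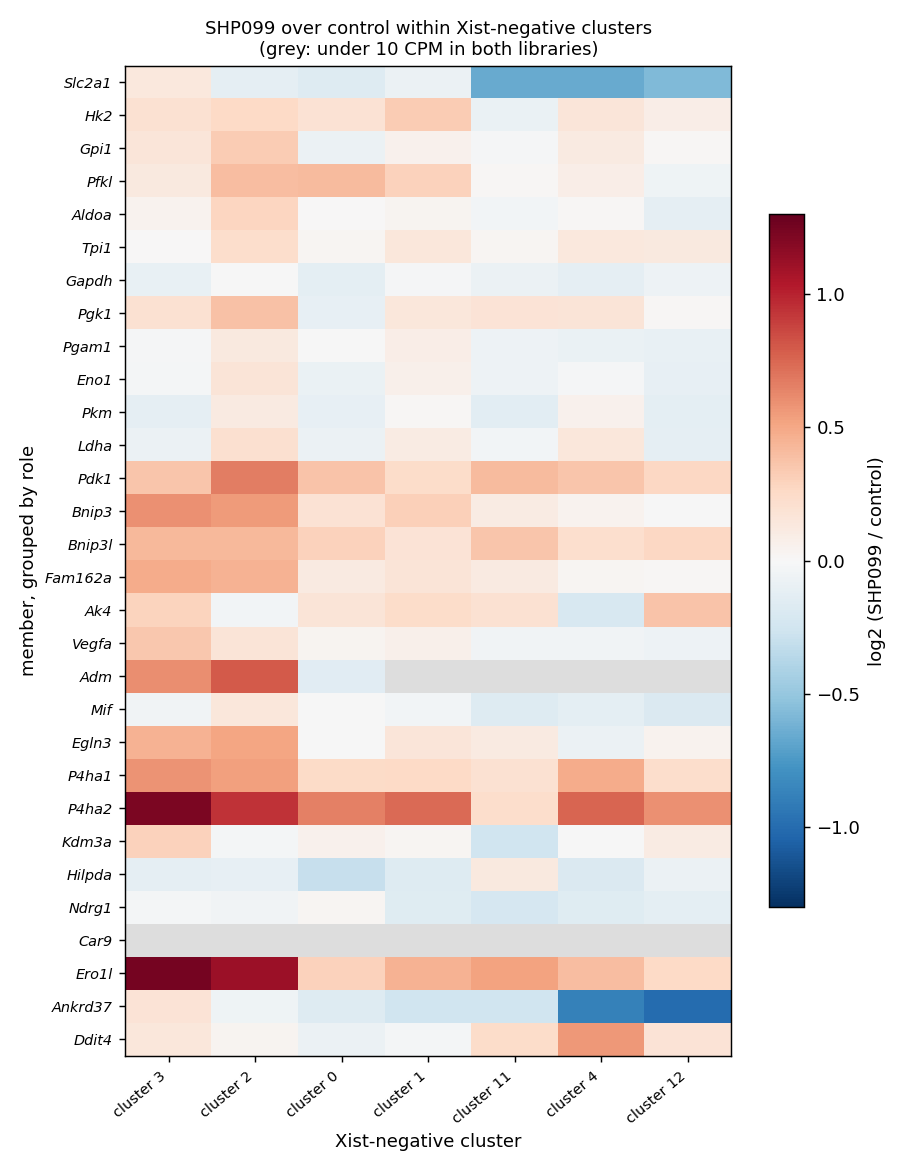
Log2 ratio of SHP099 over control of each member in 7 Xist-negative clusters, red where higher in SHP099, blue where lower and grey where under 10 CPM in both libraries. Ero1l and P4ha2 are red across the row and deepest in clusters 3 and 2, while Slc2a1 is deepest blue in clusters 4, 11 and 12 and Ankrd37 in clusters 4 and 12.

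Most members were at a higher level in cells with an Slc2a1 UMI than in cells without one. Cells were drawn down to 2000 UMIs, and those with an Slc2a1 UMI were set against those without, within each library, for members at 50 CPM over all cells of the class. Among Xist-negative cells of SHP099, 230 had such a UMI, and 17 of 19 members were at least 1.5-fold higher in them (background 2.86%), with a median log2 difference of 0.99. In control 271 cells had one, and 7 of 18 members passed that fold (background 0.777%), with a median of 0.54. In phagocytes of SHP099 it was 11 of 18 (background 3.03%) in 218 cells, and in those of control 2 of 19 (background 0.432%) in 388 cells, with medians of 0.70 in SHP099 and 0.27 in control. Ero1l in Xist-negative cells was at 470 CPM with and 89.5 CPM without an Slc2a1 UMI in SHP099, and at 142 CPM with and 58.4 CPM without in control. Bnip3 followed in both classes, with folds of 2.92 in SHP099 and 2.27 in control in Xist-negative cells, and of 2.48 in SHP099 and 1.51 in control in phagocytes. The clusters of a class were pooled for these values. In phagocytes Slc2a1 was highest in cluster 7 in both libraries, as were most members. The part of the mix of clusters in these values was not tested. Cells share a library, so these are descriptions, and the difference between libraries was not tested.

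**Figure D5:**
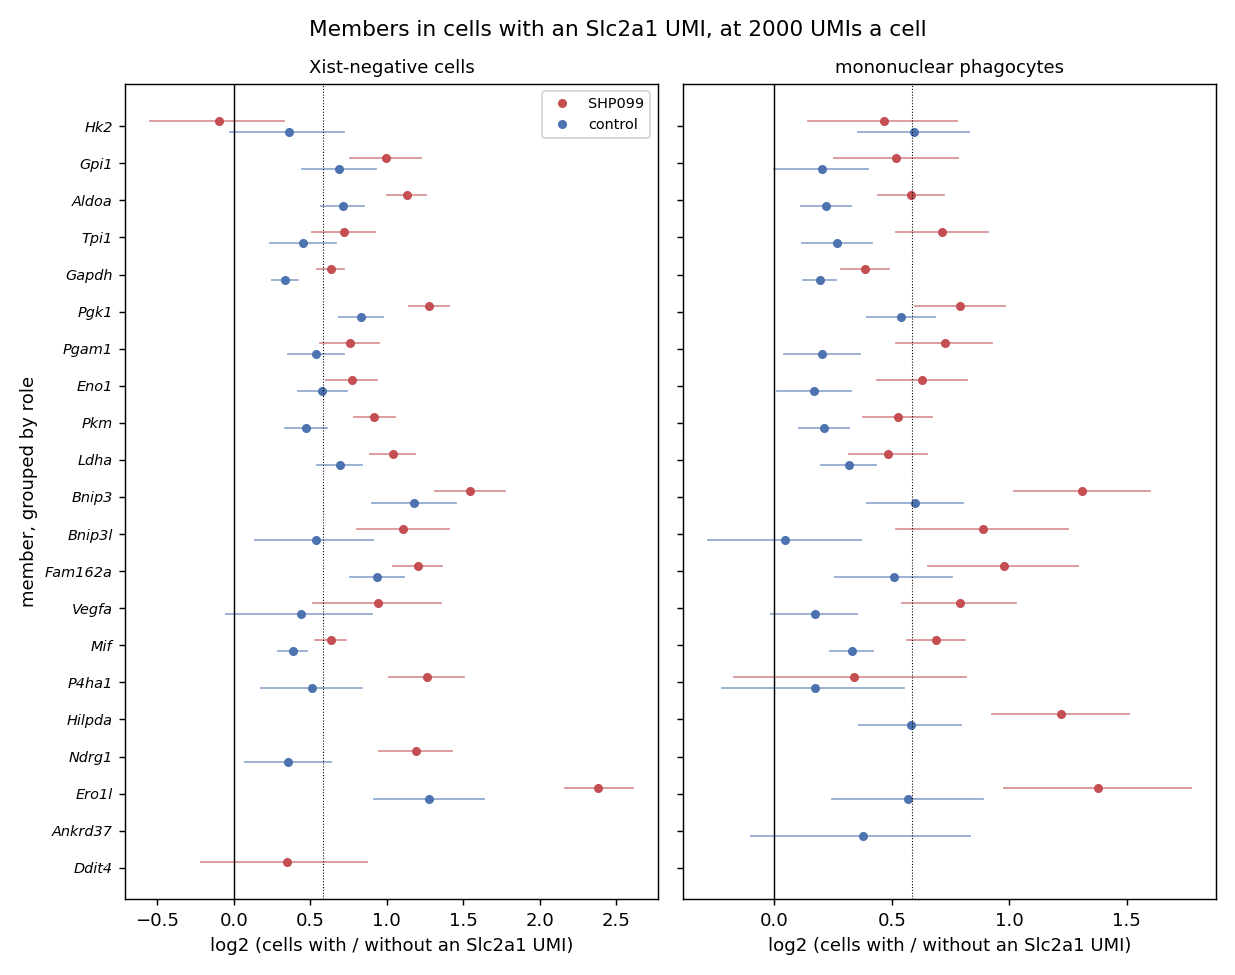
Log2 ratio of each measured member between cells with and without an Slc2a1 UMI, at 2000 UMIs a cell, in Xist-negative cells and phagocytes, with 95% intervals of counting error. Among members measured in both libraries the SHP099 points lie right of the control points, except Hk2 in both classes.

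Across units of 1 cluster in 1 library, 14 in Xist-negative cells and 8 in phagocytes, some members tracked the mean of the others and some did not. Pearson's r in Xist-negative cells was 0.96 for Bnip3, Aldoa and Gpi1 and 0.91 for Adm, but 0.15 for Hk2, 0.14 for Ndrg1, 0.06 for Egln3, −0.03 for Ddit4 and −0.04 for Kdm3a. In phagocytes it was 0.98 for Pgk1 and Pgam1 and 0.96 for Egln3, and 0.18 for Kdm3a and 0.14 for Car9. Outside the list, among genes at 50 CPM in at least 1 unit, those most like its mean were Pafah1b3, at 0.92, and Pgm2, at 0.92, in Xist-negative cells, and Pafah1b3, at 0.90, and Rgcc, at 0.88, in phagocytes. These genes were the top of a search over all such genes on few units. How high r would run in such a search without any link was not tested. Units of a library share its preparation and depth, and units of a class share their clustering.

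T cell values rest on fewer UMIs. Of 26 measured members 19 were below 0, with a median log2 ratio of −0.14 against 0.07 over 6947 genes. The interval held 0 for 17 of the 26. All 10 glycolytic enzymes were below 0, with a median of −0.19, but for 6 of them the interval held 0. The share of all genes below 0 was not counted here either. In each direction 1 member passed 1.5-fold, 1 lower against a background of 7.01% and 1 higher against 11.2%. Ddit4 was higher, at 137 CPM (116 to 161) in SHP099 and 88.6 CPM (74.4 to 105) in control (0.63), and Pdk1 was lower, on 12 UMIs in SHP099 and 34 in control, with an interval that held 0. Hilpda was at 0.42 (0.22 to 0.62) and Bnip3 at −0.53 (−0.95 to −0.12), so Hilpda stood higher in T cells and lower in phagocytes. The regulatory T cluster made up 28.6% of T cells in SHP099 and 18.5% in control. Within that cluster Hilpda was at nearly the same level in both libraries, as given above. The part of this mix in the T cell value was not tested. Regulatory and CD8 T cells both had a higher Ddit4 and a lower Bnip3 in SHP099, although for Ddit4 each cluster's interval held 0.

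Fibroblasts, endothelial cells, NK cells and dendritic cells were too few to compare with any precision, and large shares of all genes passed 1.5-fold there in either direction. In fibroblasts 10 of 30 members were at least 1.5-fold higher in SHP099 (background 20.5%) and none lower (15.1%), among them P4ha2 (log2 0.81, 0.36 to 1.26) and P4ha1, at 274 CPM in SHP099 and 160 CPM in control (0.78, 0.39 to 1.17). Markers of other cells also differed in this class. Epcam was at 85.7 CPM in SHP099 and 0 in control, and Krt8 at 47.2 CPM in SHP099 and 4.80 CPM in control. Phagocyte markers differed in direction. C1qa was at 189 CPM in SHP099 and 87.9 CPM in control, but Lyz2 at 204 and 241 CPM and Apoe at 482 and 611 CPM. The summed phagocyte markers were at 3708 CPM in SHP099 and 3071 CPM in control, of which Plac8 held 2304 and 1933 CPM. Phagocytes themselves held Plac8 at 944 CPM in SHP099 and 957 CPM in control. The part of other cells in the fibroblast values was not tested. In endothelial cells 7 of 28 were higher (22.0%) and 3 lower (19.9%). In NK cells 5 of 25 were lower (25.1%) and 4 higher (19.9%), and in dendritic cells 6 of 25 lower (18.6%) and 2 higher (24.6%).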

How the data were processed

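Droplet libraries (10x Chromium 3′) had been sequenced as 150-bp pairs and counted with Cell Ranger on mm10, per the submitters' processing notes. The deposited matrices hold UMI counts per gene and barcode, which the authors had not normalized. Barcodes under 200 genes or over 20% mitochondrial UMIs were removed, as were doublets called from simulated pairs, 198 in SHP099 and 265 in control. Cells were clustered with scanpy 1.11.5 and python-igraph 0.11.9 (Python 3.11.15, 2000 variable genes, 30 components, 15 neighbours, resolution 1.0), leaving out the members and the other pathway genes. Clusters were classed by marker genes and by Xist, and clusters under 50 cells over both libraries stayed unclassed. UMIs were summed per class and library and given as CPM. Log2 ratios of SHP099 over control use a prior of 0.5 CPM, which their exact conditional intervals leave out. A gene was measured at 10 CPM in either library and called at 1.5-fold. With 1 library per group no p-value is given. Intervals (exact Poisson or Clopper-Pearson) cover counting error only. Named genes were all 30 members, fixed lists of other pathway genes, markers and leading genes of clusters, and the genes most like the members' mean. A result of the other pathway genes in Xist-negative cells is not reported here. The members, lists and gene-gated subsets were chosen with earlier results of these data known. The calculations were tested on simulated data. One symbol, Aldoa, had a second identifier with 9 UMIs, which was not used. Promoter sequences are from RefSeq, GRCm38.p6.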

Additional observations from a re-analysis of the deposited data

Results flagged for a closer look

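For 5 members the difference between libraries ran in opposite directions in a pair of cell classes, with intervals of counting error on either side of 0 and at least 1 value of the pair past 1.5-fold. The log2 ratio of SHP099 over control of Vegfa was 0.14 in Xist-negative cells and −0.67 in phagocytes. Bnip3 stood at 0.32 in Xist-negative cells and −0.75 in phagocytes, and Egln3 at 0.34 and −0.90 in those classes. Ero1l stood at 0.66 in Xist-negative cells and −0.50 in phagocytes. Hilpda stood at 0.42 in T cells and −0.81 in phagocytes. All these values are over whole classes, whose mix of clusters differed between the libraries. With phagocyte clusters at their pooled shares of cells, no member was 1.5-fold lower in phagocytes. Within the Arg1-led phagocyte cluster the intervals of Bnip3, Egln3 and Hilpda held 0, whereas that of Vegfa lay below 0. These differences between classes were not tested, since each group had 1 library.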

How the results depend on the processing

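No paired analysis was possible because each group had 1 library. No member called in a class changed sign past 1.5-fold under any alternative. The phagocyte median of −0.40 depended on the mix of clusters: it was 0.039 over the 29 members then measured, or −0.014 over the same 26, with clusters weighted alike, −0.15 when the shallow cluster was also left out, −0.10 with clusters at their pooled shares of cells and −0.31 with gene-gated subsets weighted alike. The 7 members lower there became 0, 1 and 0 under the first 3 of these, and 4 with doublets kept or a floor of 50 CPM. Without the shallow cluster alone the median was −0.43, with 9 lower, the 7 among them. All these settings except clusters weighted alike, doublets kept and the floor were chosen after seeing the data. In Xist-negative cells the median of 0.10 was 0.052 with clusters weighted alike, and P4ha2 and Ero1l stayed past 1.5-fold under every alternative that measured them. In T cells the 1 member lower became 0 with doublets kept or a floor of 50 CPM, 2 at resolutions 0.5 and 2.0, without a floor or with the scale left without mitochondrial, ribosomal and haemoglobin genes, 3 at 10% mitochondrial UMIs, with clusters weighted alike or with cells classed by their own marker counts, and 4 when drawn down to 2000 UMIs. The cause of these moves was not tested.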
